A study of Mus musculus with 8 samples.

Results

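The ADAM and ADAMTS genes are 36 listed genes of 1 metalloprotease family, comprising 12 membrane ADAM genes, the secreted relative Adamdec1, 18 secreted ADAMTS genes and 5 ADAMTS-like genes. Members were taken by gene symbol, with every probe set whose only annotated gene was a listed one. This gave 65 probe sets of 33 genes, out of 34945 probe sets of 18193 genes on the array. Adamts2, Adamts14 and Adamts17 had no probe set of their own here and have no values. The 8 arrays came from 4 BALB/c mice bearing the syngeneic mammary tumour 4T1.2, a line that spreads spontaneously to bone. From each mouse, RNA of tumour epithelial cells isolated from the primary mammary tumour and from its matched spine metastasis was hybridised, giving 4 primary and 4 bone metastasis arrays. Neither group carried a further treatment or allele in the labels, while the age of the mice and the isolation method are not stated in the labels. Tumour epithelial markers had a mean log2 signal of 7.98 to 8.78 on primary arrays and of 6.26 to 8.01 on metastasis arrays, with 0 of 11 at or below the array median on every array of a group. The comparison asked how the tumour growing in bone differs from the primary tumour of the same mouse.

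ADAMs are membrane proteins with a metalloprotease domain and a disintegrin domain. The active ones cut the ectodomains of growth factors, cytokine receptors and adhesion molecules from the cell surface, a step called shedding, while Adam11, Adam22 and Adam23 lack a working catalytic site and serve as neuronal receptors. ADAMTS enzymes are secreted and bind the matrix through thrombospondin repeats, where they cut proteoglycans such as aggrecan and versican or trim procollagens, and ADAMTS-like proteins keep the matrix-binding part without the protease. In tumours these enzymes are studied for growth factor release and matrix turnover, and in bone and joint ADAMTS5 is known as a cartilage aggrecanase.

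Values are log2 signals, so that a difference of 1 is 2-fold. The test was limma over all 34945 probe sets with Benjamini-Hochberg adjustment, called at an adjusted p under 0.05. A probe set is termed dim where neither group had all 4 of its arrays above the array median, which lay between 5.16 and 5.17 on primary arrays and between 5.23 and 5.42 on metastasis arrays. The RNA of the groups differed in integrity controls. Between the 3′ and 5′ control probe sets of actin the log2 signal decreased by 1.08 to 1.90 on primary arrays and by 4.55 to 6.18 on metastasis arrays, and between those of Gapdh by 1.55 to 2.59 and by 4.62 to 6.08 (exact permutation test, two-sided, unpaired, p = 0.0286 for each and the smallest that reassigning 8 unpaired arrays can give, adjusted p = 0.0286 over these controls). With the mice kept as pairs, a test added after seeing the data, the drop was larger in the metastasis of 4 of 4 mice for each control and the exact two-sided p was 0.125, the smallest that 4 pairs allow. Control drop and group cannot be told apart on these arrays. The drops of metastasis replicates 3 and 4 exceeded those of replicates 1 and 2. Marker genes of other cells moved as well. With 1 probe set per gene, the brightest, all 10 neuron, 6 of 7 B cell, 5 of 8 neutrophil and 4 of 8 cartilage markers were called higher. Called lower were 9 of 11 macrophage markers and 2 of 11 tumour epithelial markers. The shares over all genes were 9.72% higher and 12.1% lower. In the other lists 1 of 5 Schwann, 1 of 4 osteoblast, 1 of 7 endothelial and 2 of 9 fibroblast and tendon markers were higher. There 2 of 6 osteoclast and 1 of 9 fibroblast and tendon markers were lower. In bulk samples fewer cells of a type and less RNA per cell cannot be told apart.

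The family did not move in a single direction. Adamdec1, Adam8, Adam10, Adam15, Adam17 and Adamtsl3 each had a probe set that fell in bone metastasis, and Adam11, Adam22, Adam23 and Adamts5 each had at least 1 that rose. Of the 65 probe sets, 13 were called, 7 higher and 6 lower. That is 20.0% of the members against 20.6% of all probe sets tested. The background was 8.72% higher and 11.9% lower, and the members' shares were 10.8% and 9.23%, so the count of calls is near the background. Over genes, 10 of 33 had a called probe set, 6 with a fall and 4 with a rise, and 0 had calls both ways. The background for these counts was 30.7% of genes with any call, 18.3% with a fall and 14.0% with a rise. With 1 probe set per gene, the brightest, 7 of 33 genes were called, 4 higher and 3 lower, against 21.8% of all genes. The groups' ranges did not overlap for 16 of the 65 probe sets, 24.6%, against 28.3% of all probe sets, 10 of them higher (background 14.3%) and 6 lower (background 14.0%). The median log2 difference was 0.15 over the members and 0.09 over all probe sets.

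Single arrays moved the count of 13 probe sets: it was 8 without primary replicate 2, 7 without primary replicate 3 and 7 without primary replicate 4. The calls over all 34945 probe sets fell as well, from 7214 to 4599, 4040 and 3803 in these fits. Leaving out both arrays of mouse 3 gave 4, with 2319 of all probe sets called. With the arrays scaled to an equal 75th percentile, which moved the median difference of all probe sets from 0.09 to 0.40, 12 member probe sets were called higher and 5 lower, and the share of falls among all called probe sets went from 57.8% to 36.1%. Taking the mouse as a block kept all 13 calls and added Adamts7 and Adamtsl4, with 16.5% of all probe sets called in that fit.

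**Figure D1:**
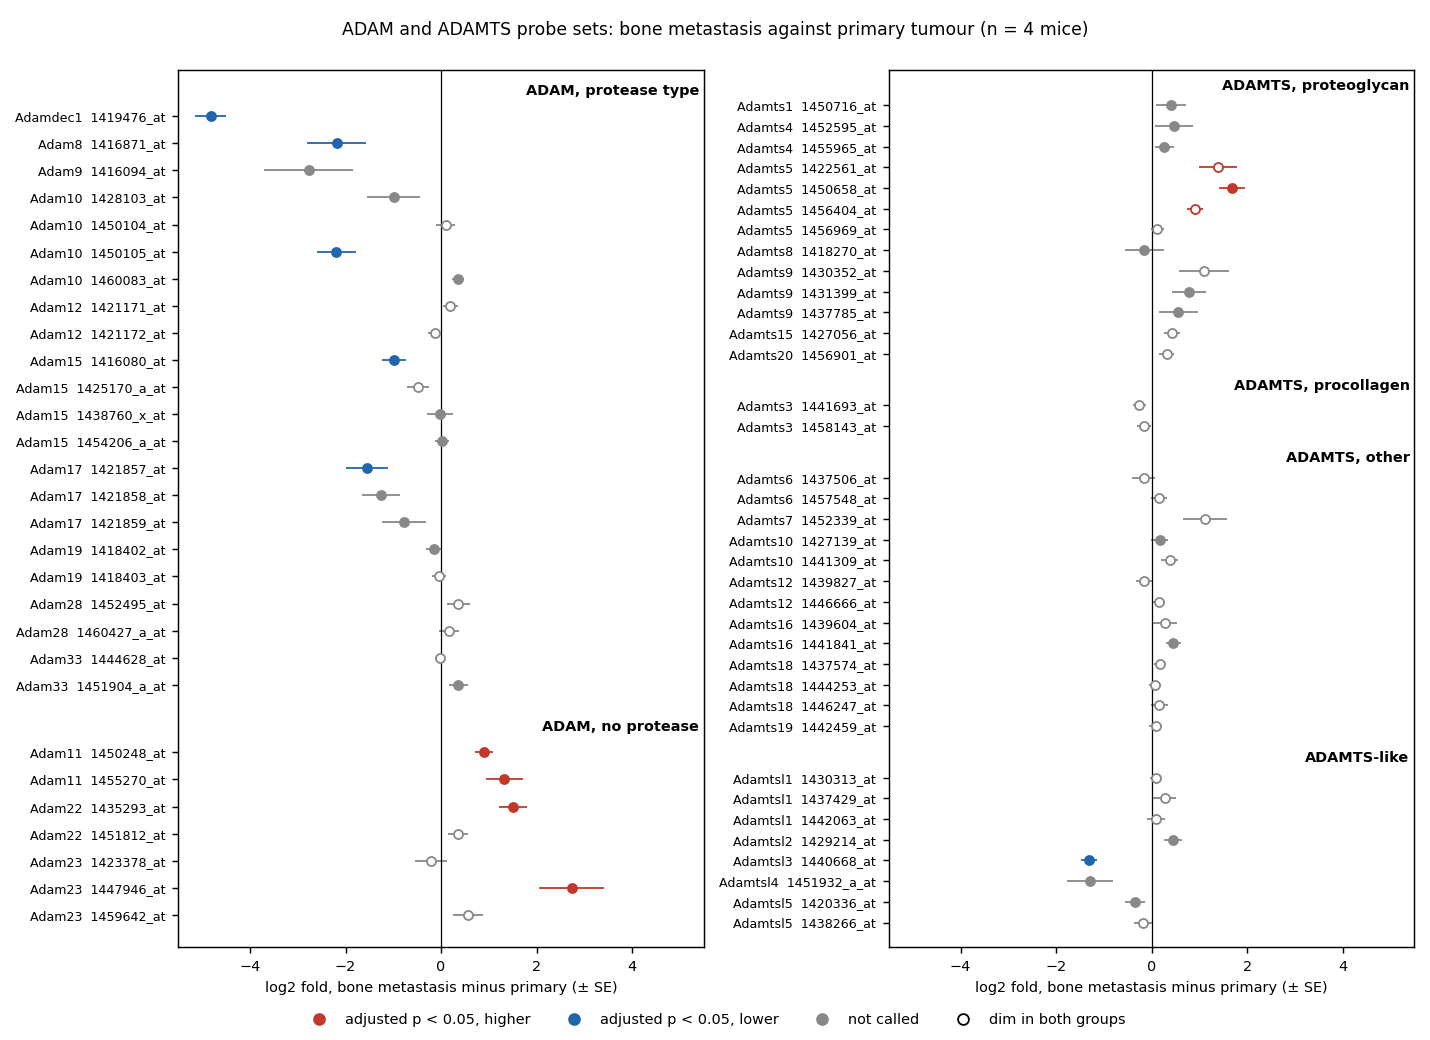
Log2 difference between bone metastasis and primary tumour (horizontal axis, mean of 4 arrays minus mean of 4, with its standard error) for each of the 65 member probe sets, ordered by the role of the gene. Red and blue points passed the test as higher or lower, grey ones did not, and open points are dim. Blue points lie among the protease-type ADAMs and at Adamtsl3, and red points at Adam11, Adam22, Adam23 and Adamts5.

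Among the 10 ADAM genes of protease type, 5 had a probe set that fell and 0 had one that rose, beside 18.3% and 14.0% of all genes. Of their 22 probe sets, 5 were called lower and 17 were not called, with a median of -0.14, beside 11.9% of all probe sets called lower. By the brightest probe set only Adamdec1 and Adam8 of the 10 genes were called, both lower, beside 12.1% of all genes called lower. Adamdec1, a secreted ADAM-like protein known from macrophages and dendritic cells, had log2 signals of 10.00, 8.86, 9.33 and 9.74 on primary arrays 1 to 4 and of 4.11, 5.38, 4.57 and 4.57 on metastasis arrays 1 to 4. The groups were 3 or more log2 units apart, and in mice 1, 3 and 4 the metastasis lay below the array median. The difference was -4.83 (SE 0.32, 28.4-fold lower, limma adjusted p = 0.000218), and because 3 of the 4 metastasis signals are under the array median its size is not exact. It was nearly as large in mice 1 and 2 (-4.69) as in mice 3 and 4 (-4.97), and it passed the test without each single array and each single mouse. Macrophage markers had a mean log2 signal of 11.3 to 12.3 on primary arrays and of 8.48 to 10.2 on metastasis arrays, with 0 of 11 genes at or below the array median on every array of either group. Metastasis array 2 was the highest of the metastasis arrays for Adamdec1 and for these markers. The part of macrophage RNA in the fall of Adamdec1 was not tested.

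Adam8, a leukocyte sheddase named CD156a, had signals of 9.81, 11.77, 11.31 and 11.76 in the primary tumours and of 8.75, 10.32, 9.20 and 7.62 in the metastases. Each mouse had the lower value in bone, but the groups overlapped, since primary array 1 lay below metastasis array 2. The difference was -2.19 (SE 0.62, 4.55-fold lower, limma adjusted p = 0.0385). It was -1.25 in mice 1 and 2 and -3.13 in mice 3 and 4. The metastasis arrays of mice 3 and 4 had the larger control drops, while their primary arrays had the smaller ones. The part of RNA integrity in this was not tested. The call was lost without primary replicate 2, 3 or 4 and without metastasis replicate 1, 3 or 4 (limma adjusted p = 0.0646 to 0.110, differences -2.26 to -1.73), and without mouse 3 or 4 (0.164 to 0.175). Adam9, a widely expressed sheddase that can release HB-EGF, had signals of 10.67, 11.28, 10.98 and 11.37 in primary tumours and of 9.53, 9.97, 8.59 and 5.10 in metastases. Here the groups did not overlap, but metastasis array 4 stood far below the others. Its difference of -2.77 (SE 0.94) did not pass the test (limma adjusted p = 0.0703). Without metastasis replicate 4 it was -1.71 and passed (limma adjusted p = 0.0144), and it also passed without metastasis replicate 2 (-3.33, 0.0379), without mouse 4 (-1.61, 0.0489), with 75th percentile scaling (-2.46, 0.0372), with the stricter filter on dim probe sets (0.0407) and with the robust intensity trend (0.0490).

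Adam10 and Adam17 are the main sheddases of many cells, Adam10 for Notch receptors and cadherins and Adam17, also called TACE, for TNF and EGF receptor ligands. Their probe sets did not speak with 1 voice. For Adam17, probe set 1421857_at read 5.24, 5.76, 7.01 and 7.27 in primary tumours and 4.63, 4.50, 4.83 and 5.09 in metastases, with no overlap. Its difference was -1.56 (SE 0.44, limma adjusted p = 0.0376), and since all metastasis values were under the array median its size is not exact. The brighter probe set 1421858_at read 10.06, 10.43, 10.31 and 10.70 against 8.68, 10.32, 9.14 and 8.30. There metastasis array 2 reached the primary range, and the difference of -1.27 (SE 0.40) missed the threshold (limma adjusted p = 0.0550). The remaining probe set, 1421859_at, gave -0.77 (SE 0.46, limma adjusted p = 0.267). All 3 lay below 0, and the called one rested on every array but primary array 1: it was lost without any other single array (limma adjusted p = 0.0509 to 0.104), without mouse 2, 3 or 4 (0.0824 to 0.180) and with scaling to the 75th percentile (0.0546). Without metastasis replicate 2, 1421858_at passed with -1.67 (limma adjusted p = 0.00310) and 1421859_at with -1.20 (0.0329).

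Adam10 fell on 1 of its 4 probe sets. The called one, 1450105_at, had signals of 5.45, 5.52, 6.21 and 7.30 in primary tumours and of 3.99, 3.52, 3.87 and 4.35 in metastases. All metastasis values were under the array median, and the difference of -2.19 (SE 0.40, limma adjusted p = 0.00760) is therefore not exact. It was lost without mouse 3 (limma adjusted p = 0.0683). The brightest probe set, 1428103_at, had 10.53, 10.72, 10.07 and 10.74 against 10.59, 10.62, 8.65 and 8.23. Metastasis arrays 1 and 2 lay within the primary range there, and arrays 3 and 4, which had the larger control drops, lay below it. The difference over all mice was -0.99 (SE 0.55, limma adjusted p = 0.237). In mice 3 and 4 alone it was -1.96 and passed (limma adjusted p = 0.0158). The other probe sets, 1450104_at and 1460083_at, differed by 0.10 (SE 0.20) and 0.35 (SE 0.13) and were not called.

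Adam15, metargidin, which carries an integrin-binding motif in its disintegrin domain, split in the same way. Probe set 1416080_at fell from 6.07, 5.92, 6.15 and 6.55 in primary tumours to 4.85, 4.77, 5.47 and 5.67 in metastases, a difference of -0.98 (SE 0.24, limma adjusted p = 0.0240), with no overlap. The brightest probe set, 1438760_x_at, whose suffix marks probes that can match other transcripts, differed by -0.02 (SE 0.26). The dim 1425170_a_at differed by -0.49 (SE 0.23) and passed without metastasis replicate 4 (-0.70, limma adjusted p = 0.0282). Probe set 1454206_a_at differed by 0.02 (SE 0.15). The fall on 1416080_at was lost without primary replicate 1, 3 or 4 (limma adjusted p = 0.0507 to 0.0754), without mouse 1, 2 or 3 (0.0622 to 0.0910) and with scaling to the 75th percentile (-0.67, 0.121). The other protease-type genes were not called on any probe set. Adam19, also called meltrin beta, had a tight level on 1418402_at, with a primary mean of 8.27 ± 0.27 (SD, n = 4) and a metastasis mean of 8.12 ± 0.06 (SD, n = 4), a difference of -0.15 (SE 0.16). Adam12, the fusion-associated meltrin alpha, and Adam28, which lymphocytes express, were dim on both of their probe sets, with differences from -0.13 to 0.36. Adam33, known as an asthma susceptibility gene, differed by 0.36 (SE 0.19) on 1451904_a_at and was dim on its other probe set.

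Among the sheddases with a called fall, promoters are shown for Adam8 and Adam17, 250 bases before to 50 after the start, from the RefSeq table of build GRCm38.p6, 5′ to 3′ on the gene's strand. Capitals mark CG dinucleotides, of which the median promoter in the table held 7. Adam8 lies at chr7:139992513-139992812 on the minus strand and Adam17 at chr12:21373583-21373882 on the minus strand.
Adam8: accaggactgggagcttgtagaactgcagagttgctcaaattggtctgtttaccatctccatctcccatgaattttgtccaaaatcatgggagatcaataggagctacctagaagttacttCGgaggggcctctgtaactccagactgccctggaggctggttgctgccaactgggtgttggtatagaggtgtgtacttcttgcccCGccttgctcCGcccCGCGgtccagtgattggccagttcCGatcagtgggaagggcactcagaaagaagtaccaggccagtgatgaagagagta
Adam17: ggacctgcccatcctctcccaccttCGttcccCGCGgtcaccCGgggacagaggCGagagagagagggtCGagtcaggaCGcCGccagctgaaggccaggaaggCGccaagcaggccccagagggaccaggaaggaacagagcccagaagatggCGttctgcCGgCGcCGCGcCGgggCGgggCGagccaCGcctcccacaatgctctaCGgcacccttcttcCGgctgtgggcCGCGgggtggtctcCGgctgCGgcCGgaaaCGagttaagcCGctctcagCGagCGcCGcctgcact
The Adam8 promoter held 6 CG dinucleotides, more than 43.6% of the 32851 promoters in the table, and Adam17 held 30, more than 88.3%. Adam8 was thus near the median of 7. Both held the GC box letters GGGCGG on either strand, 1 match each, and Adam8 also held the CCAAT box letters 2 times. The promoters of Adam10 and Adam15, whose sequences are not printed, held 32 and 25 CG dinucleotides, 3 and 5 GC box matches and 2 and 1 CCAAT matches. Over all promoters 35.7% held the GC box and 37.4% the CCAAT letters. A match is a description of letters and not a binding site.

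**Figure D2:**
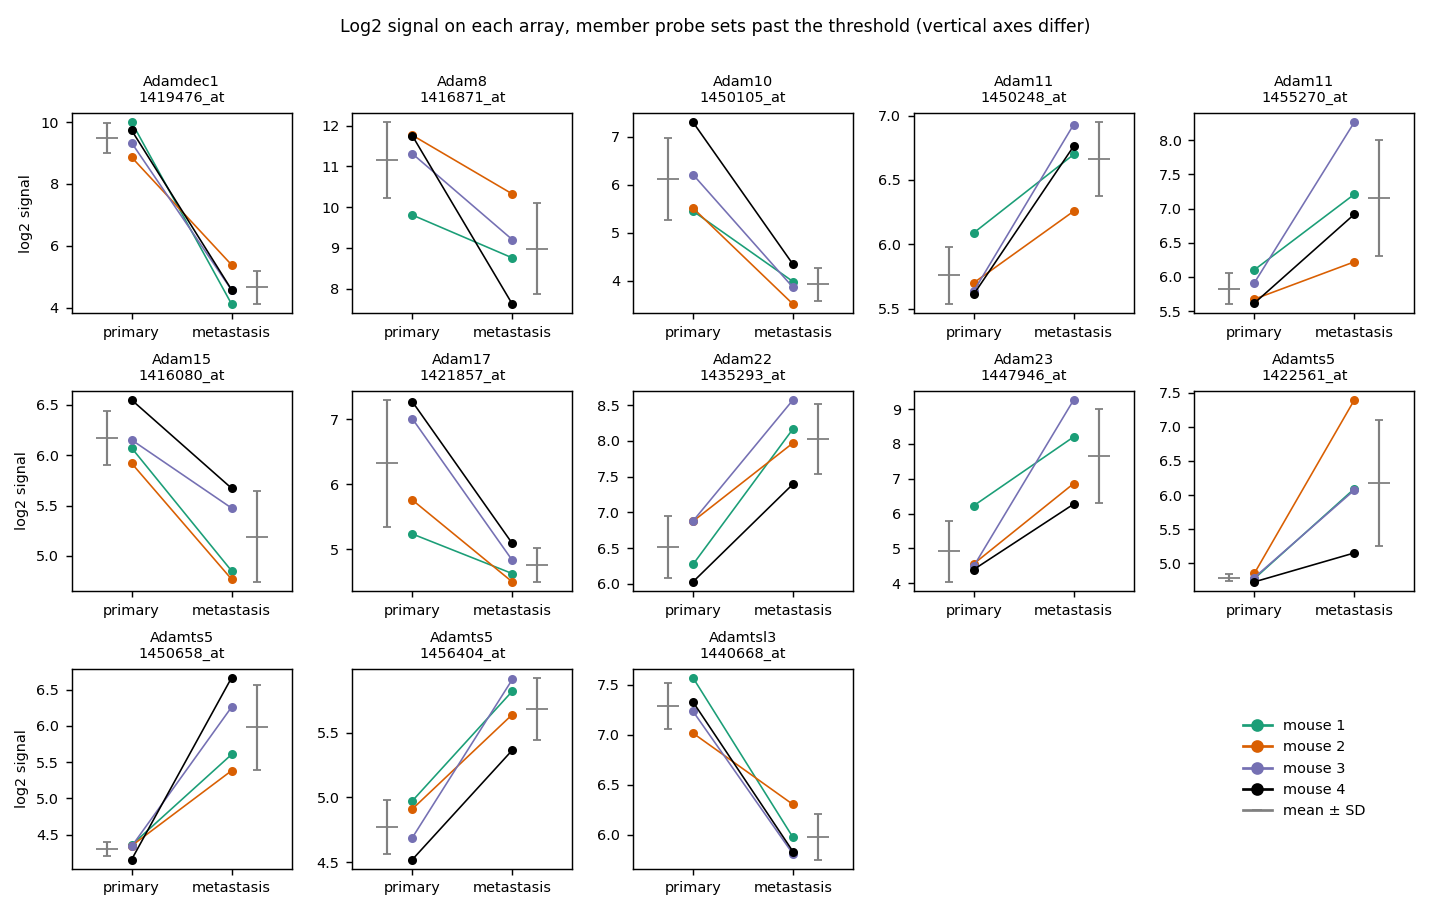
Log2 signal (vertical axis, scaled separately in each panel) of the 13 called member probe sets on the primary and metastasis array of each mouse, joined by a line per mouse, with the mean and SD of each group in grey. Adamdec1 falls from between 8.86 and 10.00 to between 4.11 and 5.38, and Adam23 on 1447946_at rises in every mouse from a primary array 1 that is itself high.

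The 3 ADAM genes without protease activity, Adam11, Adam22 and Adam23, each had a probe set that rose, 4 of 7 probe sets in all, and 0 fell. Of all genes 14.0% had a probe set that rose. The difference between these genes and the protease-type ADAMs was not tested. Their median difference was 0.90. Adam22, the axonal and synaptic receptor for LGI proteins, had signals on 1435293_at of 6.27, 6.87, 6.88 and 6.03 in primary tumours and of 8.17, 7.97, 8.57 and 7.40 in metastases. The groups did not overlap. The difference was 1.51 (SE 0.29, 2.85-fold higher, limma adjusted p = 0.00932), and it was 1.50 in mice 1 and 2 and 1.53 in mice 3 and 4. Without mouse 1 it narrowly missed the threshold (limma adjusted p = 0.0502). Its other probe set, 1451812_at, was dim (0.35, SE 0.21) and passed in mice 3 and 4 alone (0.79, limma adjusted p = 0.0428).

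Adam23, the partner receptor of Adam22 for LGI1, rose on 1 of 3 probe sets. Probe set 1447946_at read 6.22, 4.55, 4.48 and 4.39 in primary tumours and 8.20, 6.86, 9.27 and 6.27 in metastases. Primary array 1 stood above the other primary arrays and almost reached metastasis array 4. The difference was 2.74 (SE 0.68, 6.68-fold higher, limma adjusted p = 0.0243), with the size not exact because 3 primary arrays lay below the array median. It was lost without primary replicate 2, 3 or 4 (limma adjusted p = 0.0676 to 0.0747) and without mouse 2, 3 or 4 (0.0530 to 0.122). The dim probe set 1423378_at read 6.45, 5.04, 4.98 and 4.83 against 5.11, 5.02, 5.23 and 5.11, so that primary array 1 was also high there while the metastases were not. Adam23 on 1459642_at differed by 0.57 (SE 0.31), was dim and passed in mice 3 and 4 alone (1.15, limma adjusted p = 0.0188).

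Adam11, an ADAM of neurons, rose on both of its probe sets. On 1455270_at the signals were 6.10, 5.68, 5.91 and 5.62 in primary tumours and 7.21, 6.22, 8.27 and 6.92 in metastases, a difference of 1.33 (SE 0.38, limma adjusted p = 0.0416). On 1450248_at they were 6.09, 5.70, 5.64 and 5.61 against 6.70, 6.26, 6.93 and 6.76, a difference of 0.90 (SE 0.19, limma adjusted p = 0.0117). Neither probe set overlapped between the groups. The rise on 1455270_at was lost without any single primary replicate and without metastasis replicate 1 or 4 (limma adjusted p = 0.0619 to 0.112) and without mouse 1, 3 or 4 (0.0996 to 0.150). On 1450248_at it was lost without mouse 3 or 4 (0.0781 to 0.0928).

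Neuron markers lay beside these rises. Their mean log2 signal was 4.68 to 4.79 on primary arrays, where 6 of 10 genes were at or below the array median on every array, and 9.13, 8.36, 9.40 and 7.53 on metastasis arrays 1 to 4, where 0 of 10 were. Metastasis array 3 was the highest and array 4 the lowest for these markers, for Adam22 and for Adam23 on 1447946_at, and Adam11 was also highest on array 3. Primary array 1, high for Adam23, had the lowest marker mean of the primary arrays. The part of nerve RNA in the rises was not tested. Of the secreted LGI ligands, Lgi1 rose by 1.96 (SE 0.47), Lgi2 by 2.22 (SE 0.65) and Lgi3 by 2.07 (SE 0.42), with Lgi1 and Lgi3 dim and all 3 primary means below the array median, so that these sizes are not exact. Lgi4, the ligand that Schwann cells use toward axonal Adam22, differed by 0.99 (SE 0.31, limma adjusted p = 0.0524). Dlg4, the synaptic scaffold PSD-95 that binds Adam22, differed by -0.03 (SE 0.22). Of these 5 genes 3 were called higher and 0 lower, against 9.72% of all genes called higher. The list was chosen with earlier results of these data known, so its share is a description only.

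The promoters of the Adam22 and Adam23 receptor pair, which rose together, are shown in the same way, at chr5:8368111-8368410 on the minus strand and at chr1:63445641-63445940 on the plus strand.
Adam22: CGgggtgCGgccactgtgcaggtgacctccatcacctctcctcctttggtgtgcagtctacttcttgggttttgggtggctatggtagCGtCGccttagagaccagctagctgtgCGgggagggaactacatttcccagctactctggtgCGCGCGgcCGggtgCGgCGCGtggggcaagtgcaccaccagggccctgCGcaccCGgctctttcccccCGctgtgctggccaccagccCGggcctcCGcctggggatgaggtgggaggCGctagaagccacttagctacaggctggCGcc
Adam23: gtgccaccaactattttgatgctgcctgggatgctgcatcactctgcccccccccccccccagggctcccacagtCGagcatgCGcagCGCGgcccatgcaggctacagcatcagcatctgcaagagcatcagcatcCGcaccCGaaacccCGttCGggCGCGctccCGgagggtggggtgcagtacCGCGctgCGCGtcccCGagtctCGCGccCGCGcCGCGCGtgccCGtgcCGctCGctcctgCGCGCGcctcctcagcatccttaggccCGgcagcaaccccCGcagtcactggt
Adam22 held 19 CG dinucleotides and Adam23 held 31, more than 71.9% and 89.4% of promoters. Neither held the GC box, the CCAAT letters or the TATA letters TATAAA on either strand, and neither held TTCAGCACC, the left part of the RE1 element bound by the neuronal repressor REST. That string is rare, being found in 0.371% of promoters, and no match says only that these letters are not in this window.

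**Figure D3:**
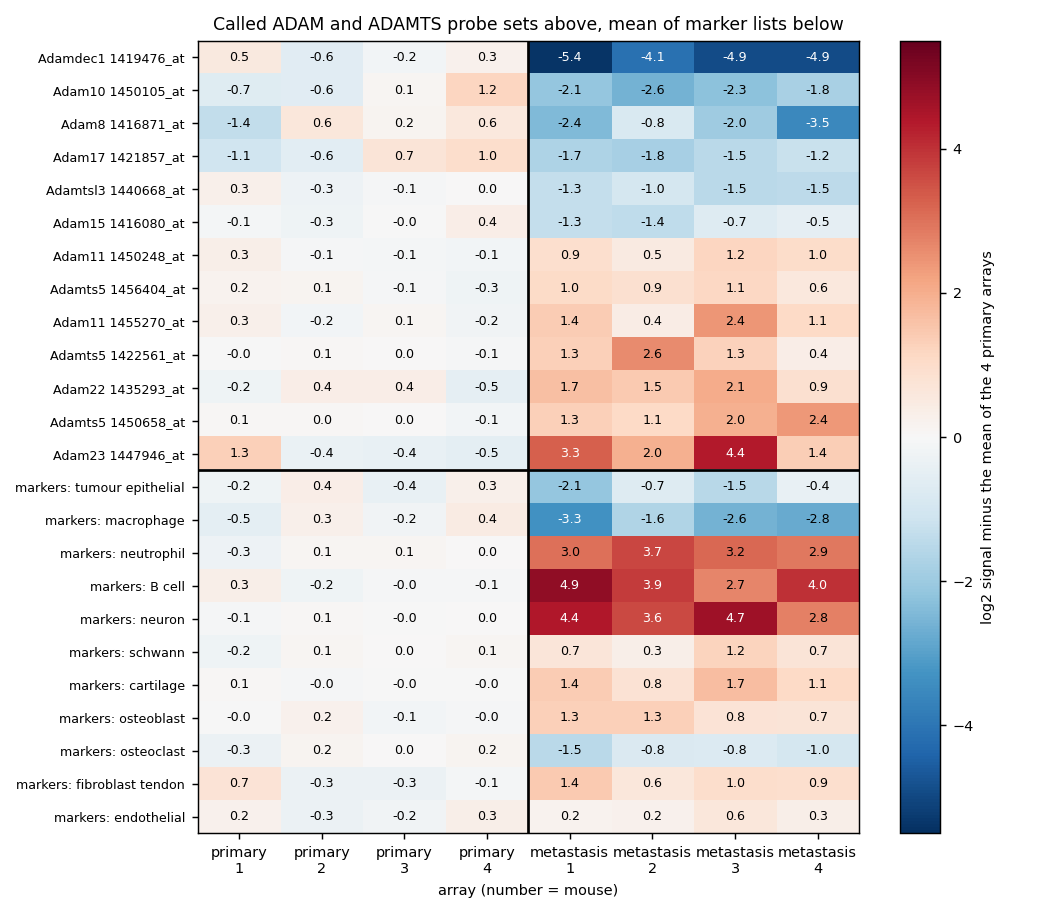
Log2 signal of each array minus the mean of the 4 primary arrays (colour and printed value), for the 13 called member probe sets above the line and for the mean of each marker list below it. The metastasis columns show Adam11, Adam22 and Adam23 highest on array 3, as are neuron, Schwann, cartilage and endothelial markers. Adamdec1 is least reduced on array 2, as are macrophage markers.

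Of the ADAMTS proteoglycanases, Adamts5 rose and the other 6 were not called. Over the 7 genes 3 of 13 probe sets, all of Adamts5, were called higher and 0 lower, with a median of 0.46. Of all probe sets 8.72% were called higher. By genes, 1 of 7 had a called rise, beside 14.0% of all genes, so the group is near the background. Adamts5, the aggrecanase of cartilage breakdown, had on 1450658_at signals of 4.36, 4.34, 4.34 and 4.15 in primary tumours and of 5.61, 5.38, 6.26 and 6.67 in metastases. The primary signals were tight and below the array median, and the metastasis signals were above it on every array. The difference was 1.68 (SE 0.27, 3.21-fold higher, limma adjusted p = 0.00470) and it passed without each single array and mouse. Probe set 1422561_at read 4.78, 4.85, 4.79 and 4.73 against 6.09, 7.40, 6.07 and 5.15, a difference of 1.39 (SE 0.40, limma adjusted p = 0.0413). Probe set 1456404_at read 4.97, 4.91, 4.69 and 4.52 against 5.82, 5.64, 5.91 and 5.36, a difference of 0.91 (SE 0.17, limma adjusted p = 0.00820). In all 3 the groups did not overlap, but the order of the metastases differed: array 4 was the highest on 1450658_at and the lowest on 1422561_at, and array 2 was the reverse.

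Adamts5 on 1422561_at lost its call without any single primary replicate, without metastasis replicate 1 or 3 (limma adjusted p = 0.0586 to 0.103), without mouse 1, 2 or 3 (0.0575 to 0.167) and with quantile normalization (0.0691), and on 1456404_at without mouse 3 (0.0724). The fourth probe set, 1456969_at, was dim with 0.12 (SE 0.14). The called 1422561_at and 1456404_at were dim too, with metastasis array 4, at 5.15 and 5.36, under its median of 5.42. Since the primary signals were below the array median, none of these sizes is exact. Cartilage markers had a mean log2 signal of 5.21 to 5.32 on primary arrays, with 4 of 8 genes at or below the array median on every array, and of 6.06 to 6.97 on metastasis arrays, with 1 of 8. Fibroblast and tendon markers lay at 6.58 to 7.65 and at 7.54 to 8.34, but did not move as a set. Of these 9 genes 2 were called higher, 1 lower and 6 not, with a median difference of 0.17. Among them Fmod differed by 6.89 (SE 0.82) and Pdgfra by -2.15 (SE 0.51). The part of these cells in the rise of Adamts5 was not tested.

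Adamts1, an aggrecanase and versicanase induced in inflammation, had 8.65, 7.89, 8.26 and 8.32 in primary tumours and 8.50, 9.36, 9.01 and 7.90 in metastases, and its difference of 0.41 (SE 0.32) was within the spread. Adamts4, the other main aggrecanase, had 8.50, 6.97, 7.90 and 8.02 against 7.50, 8.07, 8.88 and 8.80 on 1452595_at. The difference was 0.46 (SE 0.40), and arrays 3 and 4 lay above the primary range while arrays 1 and 2 lay within it. In mice 3 and 4 alone it was 0.88 and passed (limma adjusted p = 0.0315). Adamts9, a versicanase of developing tissues and vessels, lay at 1.09 (SE 0.52), 0.77 (SE 0.35) and 0.56 (SE 0.41) on its 3 probe sets, all above 0 and none called. On 1430352_at it passed without metastasis replicate 4 (1.54, limma adjusted p = 0.0407), and on 1431399_at in mice 3 and 4 alone (1.54, 0.00961). Adamts8 differed by -0.16 (SE 0.41), Adamts15 by 0.42 (SE 0.16, dim) and Adamts20, the gene of the belted mouse, by 0.31 (SE 0.16, dim). With 75th percentile scaling Adamts9 on 1430352_at (1.41, limma adjusted p = 0.0360), Adamts15 (0.73, 0.0480) and Adamts20 (0.63, 0.0486) passed. Adamts15 also passed without metastasis replicate 1 (0.55, limma adjusted p = 0.0210), without mouse 1 (0.57, 0.0498) and without metastasis arrays 1 and 3 (0.61, 0.0330).

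The remaining ADAMTS genes gave 0 calls by limma on 15 probe sets, beside 20.6% of all probe sets called. Most of these were dim, and of all dim probe sets 6.01% were called. Of these 15, 2 had an unadjusted p under 0.05. Adamts3, the measured procollagen N-propeptidase, which also activates VEGF-C, was dim on both probe sets (-0.26 and -0.16). Adamts7, which can cut the cartilage protein COMP, had 5.08, 4.46, 4.24 and 4.84 in primary tumours and 7.21, 5.11, 4.99 and 5.79 in metastases. Every mouse had the higher value in bone, metastasis array 1 stood above the rest, and the groups overlapped. The difference was 1.12 (SE 0.47, limma adjusted p = 0.128), it was dim, and it passed with the mouse as a block (limma adjusted p = 0.0497) and with 75th percentile scaling (1.43, 0.0266). Adamts16 on 1441841_at differed by 0.45 (SE 0.16, limma adjusted p = 0.0795) and passed without metastasis replicate 3 (0.0423), with quantile normalization (0.0391), with 75th percentile scaling (0.0284) and without metastasis arrays 1 and 3 (0.0397), and its dim probe set 1439604_at passed in mice 3 and 4 alone (0.85, 0.0422). Adamts6, Adamts12, Adamts18 and Adamts19 were dim on every probe set, with differences from -0.17 to 0.18. Adamts10, a partner of fibrillin microfibrils, differed by 0.17 (SE 0.18) on 1427139_at and by 0.37 (SE 0.17) on a dim probe set.

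Among the ADAMTS-like genes, Adamtsl3 fell. It had 7.57, 7.02, 7.24 and 7.33 in primary tumours and 5.98, 6.30, 5.81 and 5.83 in metastases. The groups were well apart and each was tight. The difference was -1.31 (SE 0.17, 2.48-fold lower, limma adjusted p = 0.00211), and it passed without each single array and mouse. Adamtsl4, which associates with fibrillin in the eye's zonule, read 6.25, 8.64, 7.28 and 8.24 against 5.87, 6.71, 6.33 and 6.37. The primary arrays were spread and array 1 lay within the metastasis range. Its difference of -1.28 (SE 0.48) was not called (limma adjusted p = 0.0947), but it passed with the mouse as a block (0.0414), without primary replicate 1 (-1.73, 0.0170) and without mouse 1 (-1.58, 0.0304). Adamtsl2, the gene of geleophysic dysplasia, differed by 0.45 (SE 0.19) and passed without metastasis replicate 2 (0.61, limma adjusted p = 0.0282). Adamtsl5 differed by -0.35 (SE 0.22) on 1420336_at, and Adamtsl1 was dim on its 3 probe sets. Of the 8 probe sets 1 was called, lower, which is near the 11.9% of all probe sets called lower.

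The Adamtsl3 promoter is shown as the most CG-rich of the member promoters in the table, at chr7:82335444-82335743 on the plus strand.
Adamtsl3: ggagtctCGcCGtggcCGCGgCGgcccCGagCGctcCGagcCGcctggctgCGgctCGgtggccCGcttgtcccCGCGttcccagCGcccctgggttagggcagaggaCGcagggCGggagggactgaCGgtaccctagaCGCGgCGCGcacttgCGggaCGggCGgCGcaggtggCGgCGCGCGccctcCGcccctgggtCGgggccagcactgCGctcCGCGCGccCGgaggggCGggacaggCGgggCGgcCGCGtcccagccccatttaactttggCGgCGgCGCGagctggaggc
It held 46 CG dinucleotides, more than 98.4% of promoters, and 5 GC boxes. The table held promoters for 20 of the 36 genes, 22 entries in all because Adam19 has 3 start sites there. Of these entries 16 held a GC box, 72.7%, beside the 35.7% of all promoters.

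Activators and partners of the family were taken from a list of 12 genes. By the brightest probe set of each gene they gave 2 rises and 1 fall. Of all genes 21.8% were called, so 3 of 12 is near the background. This list and those of inhibitors and substrates below were chosen with earlier results of these data known. Their shares are therefore descriptions only, and no list was tested. Frmd8, which stabilises the iRhom proteins that carry Adam17 to the surface, fell by 1.18 (SE 0.25, limma adjusted p = 0.0116). The iRhom genes Rhbdf1 and Rhbdf2 differed by -1.22 (SE 0.40) and -1.12 (SE 0.36) and just missed the threshold (limma adjusted p = 0.0613 and 0.0573). With the mouse as a block Rhbdf2 passed (0.0148). Tspan17, a tetraspanin that escorts Adam10, rose by 1.31 (SE 0.37). The proprotein convertase Pcsk5 rose by 2.06 (SE 0.53, limma adjusted p = 0.0257, 0.0570 with the block).

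The inhibitors split between those that fell and those that rose. Timp1 and Timp2 fell by 1.42 (SE 0.26) and 1.16 (SE 0.21). Timp3, the matrix-bound inhibitor of Adam17 and of the aggrecanases, rose from 6.57 ± 0.57 (SD, n = 4) to 9.43 ± 0.92 (SD, n = 4), a difference of 2.86 (SE 0.47, limma adjusted p = 0.00435), and Timp4 rose by 2.41 (SE 0.34) and was dim. Lrp1, the endocytic receptor that clears Adamts4, Adamts5 and Timp3, fell by 2.06 (SE 0.32). In this list 2 of 7 genes were higher and 3 lower, with 9.72% and 12.1% of all genes called so.

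Of 26 measured shedding substrates, 8 fell, 1 rose and 17 were not called. Of all genes 12.1% were called lower and 9.72% higher. The substrates' median difference was -0.99. Vcam1, an adhesion molecule cut by Adam17, fell by 4.05 (SE 0.70). The receptor tyrosine kinase Axl fell by 3.96 (SE 0.45) to a metastasis mean of 5.23, near the array median, the membrane-bound chemokine Cxcl16 fell by 3.03 (SE 0.32) and Tnf fell by 2.80 (SE 0.44). Notch3 rose by 0.99 (SE 0.23), and Notch1 and Notch2 differed by -0.51 and -0.50 without a call. Dll1, a Notch ligand, fell by 1.16 (SE 0.29) and lost its call with the mouse as a block (limma adjusted p = 0.0607), while Jag1 gained one there (0.0481). Several of these genes, such as Tnf, Axl, Mertk and Cxcl16, are also expressed by macrophages, whose markers fell, and the part of macrophages was not tested.

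Of 17 measured ADAMTS substrates and matrix partners, 7 rose, 2 fell and 8 were not called, with a median of 0.92. Of all genes 9.72% were called higher and 12.1% lower. The small proteoglycan gene Fmod rose by 6.89 (SE 0.82), from a primary mean of 4.22 that is below the array median, so that the size is not exact, and Comp by 4.13 (SE 0.40), and the aggrecan gene Acan rose by 3.12 (SE 0.73). Vcan, the versican gene, differed by 0.82 (SE 0.60) and was dim. Thbs1 fell by 2.58 (SE 0.70) and Sdc4 fell by 1.34 (SE 0.39). Acan, Comp and Col2a1 of this list are also counted among the cartilage markers. Fmod, Dcn, Col1a1 and Col1a2 are also fibroblast and tendon markers, and Vwf is also an endothelial marker.

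**Figure D4:**
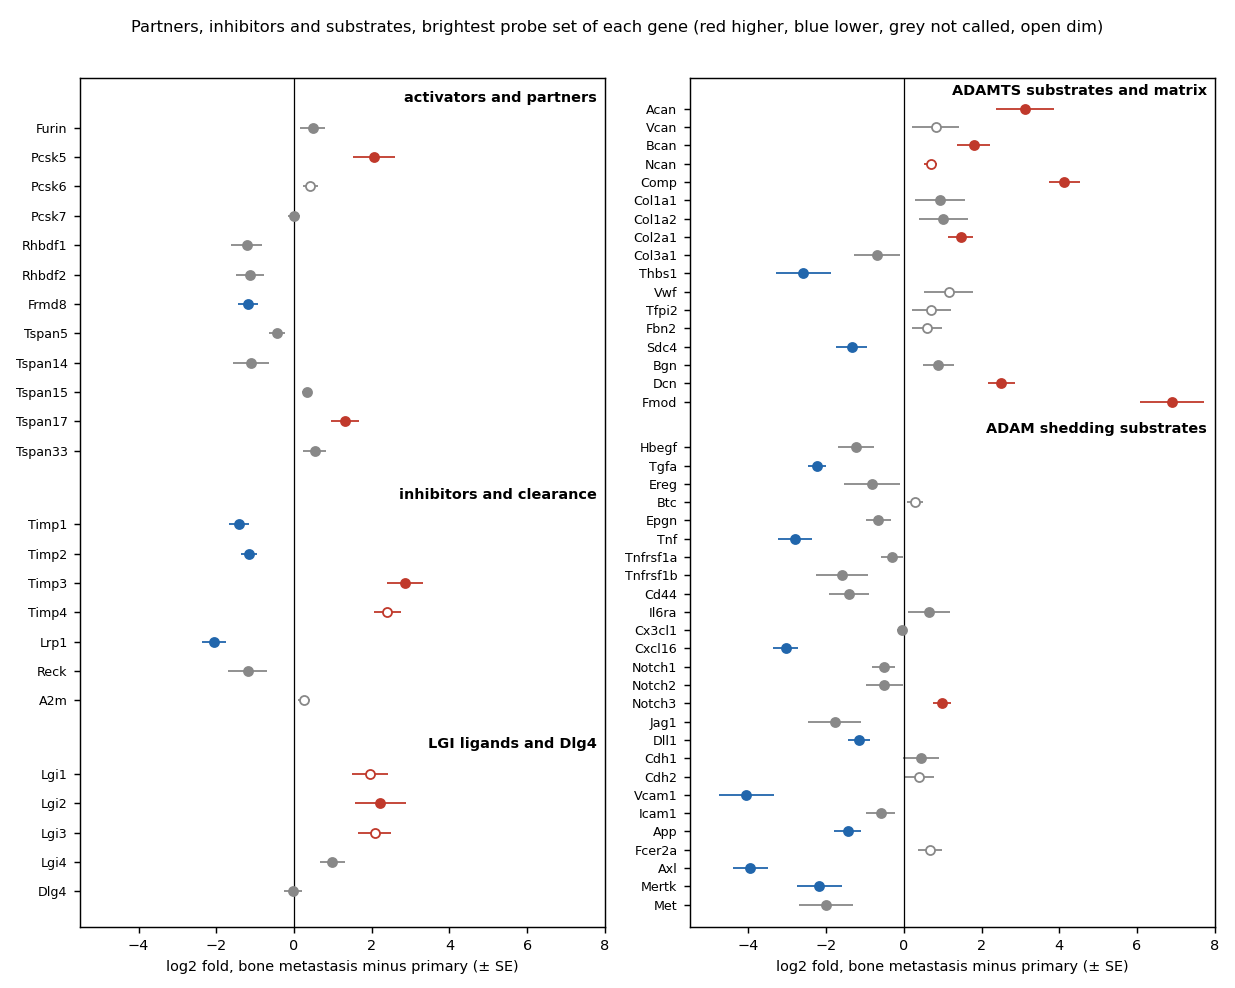
Log2 difference between bone metastasis and primary tumour with its standard error (horizontal axis) for the activators, inhibitors, LGI ligands and substrates, each by its brightest probe set. Red is higher, blue lower, grey not called and open dim. Timp1 and Timp2 lie left of 0 and Timp3 and Timp4 right of it.

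Family genes outside the listed 36 were looked at beside the members. Of 22 further family genes, most of them ADAMs known from testis, 16 had a probe set of their own. By limma 0 of the 16 were called, against 21.8% of all genes, and 0 had an unadjusted p under 0.05. Their differences ran from -0.24 to 0.34, and 14 of the 16 were dim. Of all dim probe sets 6.01% were called, so few calls could arise here and the count is no contrast to the members.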

How the data were processed

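RNA of 4 primary tumours and the 4 spine metastases of the same mice was amplified in a pair of rounds before labelling, per the labels' protocols, and hybridised to 8 one-colour arrays. The deposited log2 signals, 1 per probe set and array, were made by the authors with RMA, per the submitters' processing notes; its version is not given in the sources used here. Of 45101 probe sets, the platform table pairs 34945 with 1 gene, 932 with more than 1 and 9160 with no gene, and 64 were controls. Only probe sets with 1 symbol were tested. Scanner files were not used here.

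Metastasis was compared with primary by limma 3.58.1 (R 4.3.3) without a block, two-sided, with Benjamini-Hochberg adjustment over all probe sets, and over 18193 genes for the fit on 1 probe set per gene, the one with the highest mean. Members and lists were chosen with earlier results of these data known. By rule, all arrays are given for members with a call of at least 1 log2 unit, other members by difference, and of each other list up to 4 called and 2 uncalled genes. Adam9, Adam15, Adamts1, Adamts4, Adamts7, Adamtsl4 and further list genes (Notch3, Dll1, Jag1, Sdc4, Timp2) were added after their values were seen. Arrays carry no depth, and their number limits the precision: the median SE over all probe sets was 0.21.

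The design text says that both tumours of a number came from 1 mouse, which pairs the samples. Deviations from the group means correlated at 0.16, -9.18e-06, 0.03 and -0.10 in the 4 pairs. Alternatives were the mouse block, quantile normalization, 75th percentile scaling, a stricter filter on dim probe sets, a robust intensity trend, other probe sets per gene, and leaving out arrays, mice or pairs of mice. Figures were drawn with matplotlib 3.10.9.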

Additional observations from a re-analysis of the deposited data

Results flagged for a closer look

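Each group of 4 arrays was searched for an array far from the other 3, over the 65 member probe sets. This gave 5 such arrays in 130 groups, and chance gives about 1 in 20. Adam23 stood out on primary array 1 with 2 probe sets, at 6.45 on 1423378_at against 4.83 to 5.04 on the other primary arrays, and at 6.22 on 1447946_at against 4.39 to 4.55. Adam33 on 1444628_at was at 4.15 on metastasis array 1 against 4.05 to 4.06, a range of small size on a dim probe set. Adamts5 on 1450658_at was at 4.15 on primary array 4 against 4.34 to 4.36, also below the array median. Adamtsl5 on 1438266_at was at 4.69 on metastasis array 4 against 3.89 to 4.01 and was dim in both groups.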

How the results depend on the processing

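The counts of calls depended on which arrays were used. Leaving out 1 array or 1 mouse gave 4 to 16 called member probe sets (main 13), 2 to 8 higher (7) and 2 to 8 lower (6), and by the brightest probe set 3 to 10 called genes (7), 1 to 5 higher (4) and 2 to 5 lower (3). Calls over all probe sets moved too, from 2319 without mouse 3 to 8439 without metastasis replicate 1 (main 7214). With mice 1 and 2 alone 0 member probe sets and 0 genes were called in either direction by limma, though 12 probe sets had an unadjusted p under 0.05, and 0 of all probe sets were called. With mice 3 and 4 alone 15 member probe sets were called, beside 8110 of all probe sets, and 1 gene was higher and 6 lower. Without metastasis arrays 1 and 3, whose tumour epithelial markers were low, 7 member probe sets were called, 4 higher and 3 lower, and 4 genes, 2 of them higher. Over all probe sets 5153 were called there. Scaling to the 75th percentile gave 12 higher member probe sets, beside 5676 higher of all probe sets. By genes, the falls numbered 5 with the stricter filter on dim probe sets, 6 with the most variable probe set and 5 with the mean of a gene's probe sets. With the mouse as a block (replicate block) 15 member probe sets were called, 8 higher and 7 lower, and 9 genes; it changed no other member call than those named for Adamts7 and Adamtsl4. The count over partners, substrates and other family genes was 29, 29 with the block and 30 with the scaling. No called member changed direction under any of these alternatives. The cause of these changes was not tested. Signal over background limits the dim probe sets, 34 of the 65 (52.3%, beside 45.3% of all probe sets). Of the dim members 2 were called (5.88%), both of Adamts5, and of the 31 others 11 were (35.5%). Over all probe sets these shares were 6.01% and 32.75%, so the members lie near the background.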

Other observations

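Probe sets of 1 gene did not always give the same difference, though 0 of the 33 genes had calls in both directions. Of the 21 member genes with more than 1 probe set, 7 had differences on both sides of 0 and 5 had differences more than 1 log2 unit apart, namely Adam10, Adam15, Adam22, Adam23 and Adamts5. Opposite signs lay close to 0 for some genes, as for Adam12 (-0.13 and 0.19) and Adamts12 (-0.16 and 0.15). The share for all genes on the array was not computed. Of the 33 genes, 11 were dim on every probe set. The spread among metastasis arrays exceeded that among primary arrays for 53 of the 65 member probe sets, with a median SD ratio of 2.02, and for 85.4% of all probe sets, with a median ratio of 2.36.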
